A study of Mus musculus with 20 samples.

Results

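The collagen chain genes examined here were all genes whose symbol has the form Col, a type number, the letter a and a chain number, as in Col1a1. There were 42 of them among the 37561 genes listed in every table, and the rule used names only and no measured value. By their textbook assembly, 11 encode fibrillar chains, 8 encode chains of basement membranes and 23 encode other types. None was listed at 0 in both columns of most tables, so none was set apart, although 3 were at 0 in at least 1 table.

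Spherical neural masses (SNMs) were grown from ESD3, a mouse embryonic stem cell line of strain 129s2/SvPas, and were followed by RNA sequencing through dopaminergic differentiation. The control line carried a short hairpin RNA against luciferase, and the HPRT knockdown line carried a hairpin designed against human HPRT. Both lines had thus been transduced and, per the study's methods, selected with puromycin, and both stem cell lines had been kept on mouse embryo fibroblast feeders. Each line gave 1 library on each of 10 days (every day from 0 to 4, then every second day up to day 14), 20 libraries in all. The RNAs of each line and day were pooled into 1 library, so no spread within a day could be measured. Whether either line was a single clone, and whether feeder cells remained in the SNMs, is not given in the sources used here. All 7 neuron markers and all 8 neural progenitor markers found in the tables passed the filter on abundance described below. In such bulk RNA, fewer cells of a type and less RNA per cell cannot be told apart.

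The measured quantity was the log2 ratio, the log2 normalized read count of the HPRT knockdown library minus that of the control library of the same day. The line difference of a gene is the mean of this ratio over 9 days, with the SD over those days as its error. Day 6, which the study's own pathway analysis left out as discrepant, is given beside it. The days are successive collections of the same lines, not independent cultures, so p-values measure the spread between days. The knocked down gene, Hprt, was read 535 to 1407 times in the control libraries and 19.2 to 198 times in the HPRT knockdown libraries. Its ratio was -4.0 ± 0.89 (SD, n = 9 days), and it was lower on 9 of 9 days. The depth of each library is known only relatively, with size factors from 0.82 to 1.60 of the median library. For 25 members the read numbers could be worked back from the tables, 18 of them in all 20 libraries, and 17 members have ratios only.

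Collagens are trimers of alpha chains wound into a triple helix. Fibrillar types (I, II, III, V, XI, XXIV and XXVII) form the banded fibrils of connective tissue and cartilage, type IV forms the sheet of basement membranes, and fibril-associated types sit on the surface of fibrils. In the developing nervous system collagens are mainly known from the meninges, blood vessels and basement membranes around neural tissue, and several transmembrane and fibril-associated types are also made by neurons or glia.

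The filter on abundance asked for a typical log2 normalized count of about 4 or more, estimated from the rounding of the deposited values. Members near this limit can fall below it in counts, such as Col19a1. Its medians, scaled to the median library, were 13.0 reads in the control and 15.3 in the HPRT knockdown line. In the comparison of the lines, 37 of the 42 members passed this filter and were tested (11 fibrillar, 6 basement membrane and 20 other). Of these, 18 differed between the lines at an adjusted p below 0.05 (limma, Benjamini-Hochberg over 13608 genes), 11 of them higher and 7 lower in the HPRT knockdown line. That is 48.65% of the members tested, and the share among all 13608 genes was 52.5% (26.2% higher and 26.3% lower), so the share of members called was close to the background. The median line difference was 0.30 for the 37 members and 0.01 for all genes tested. The direction differed between chains: the highest mean ratio was 3.05 (Col9a1) and the lowest was -3.99 (Col6a6). In the fibrillar class 4 members were higher and 2 lower, in the basement membrane class 2 were higher, and among the other types 5 were higher and 5 lower. The ratio had 1 sign on all 9 days in 7 members, against 29.2% of all genes tested. Col4a5, Col4a6, Col9a3 and Col11a1 were higher every day, and Col6a6, Col24a1 and Col28a1 were lower every day. Of the 18 calls, 12 were kept whichever day was left out. The calls of Col2a1, Col5a2, Col8a2, Col11a2, Col23a1 and Col25a1 were each lost without at least 1 of the days. Without the pairing of the lines by day, 11 members were called, 7 higher and 4 lower, and the calls of Col2a1, Col5a2, Col5a3, Col6a2, Col9a3, Col11a2 and Col28a1 were lost.

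**Figure D1:**
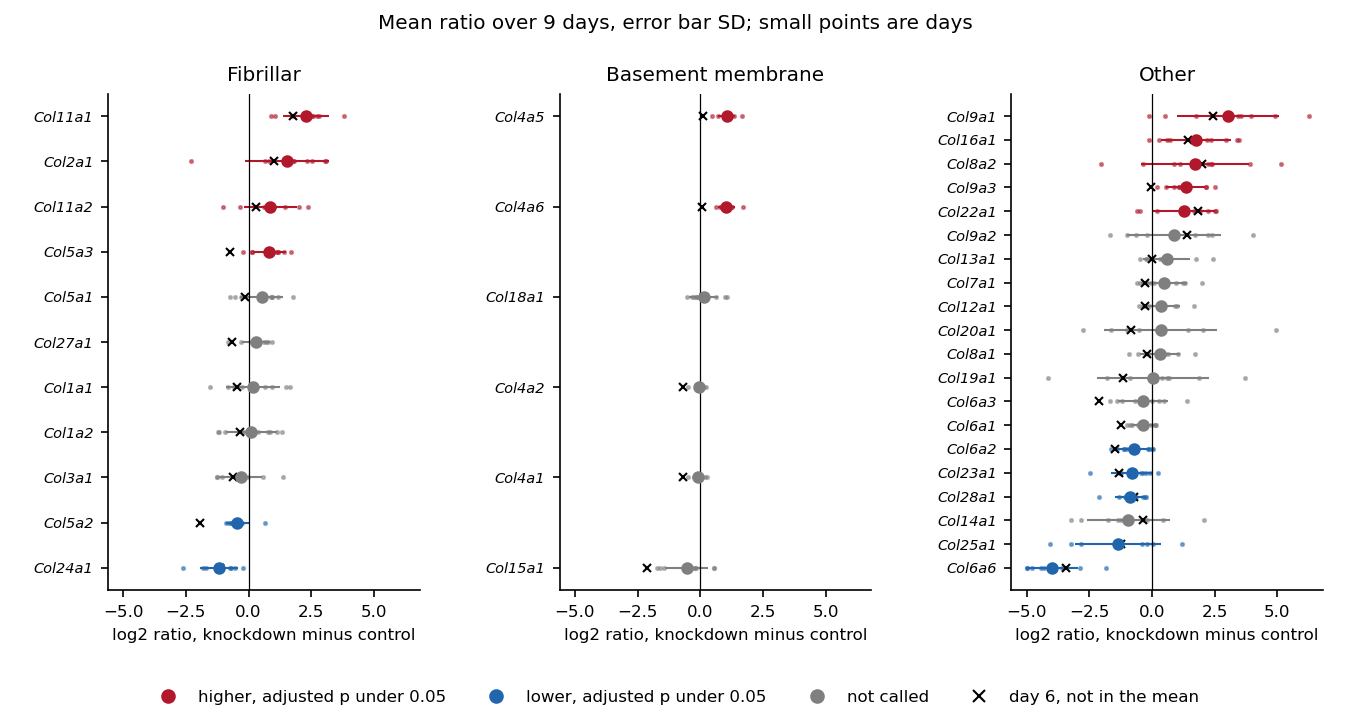
Mean log2 ratio, HPRT knockdown minus control, of the 37 tested collagen genes in 3 classes (horizontal axis, log2), with the SD over 9 days as error bar, each day as a small point and day 6 as a cross. Red and blue members passed an adjusted p of 0.05, and means run from 3.05 for Col9a1 to -3.99 for Col6a6.

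The 5 members under the filter were Col4a3, Col4a4, Col6a4, Col10a1 and Col17a1. Where their reads are known they were mostly few, and those of Col4a3 are not known. Col4a4 had 2 to 18 reads in the control libraries and 2 to 7.10 in the HPRT knockdown libraries, and Col6a4 had 3 to 11 and 1 to 11 in the 8 libraries of each line with known reads. Col10a1, the collagen of hypertrophic cartilage, had 0 to 208 reads in the first 5 control libraries and 2 to 78 in the corresponding HPRT knockdown libraries. Col17a1, a transmembrane chain of epithelial attachment plaques, had 0 to 108 and 7.98 to 51.2. The ratios of each of these 4 members fell on both sides of 0, and the 4 were not tested.

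The 250 bases before the transcription start are shown for 4 genes whose ratio kept 1 sign on all 9 days: the highest such member (Col11a1), the lowest (Col6a6), and the neighbours Col4a5 and Col4a6, whose mean ratios were alike. The sequences are those of RefSeq on GRCm38.p6 and run 5′ to 3′ on the strand of the gene. Capitals mark a GC box (GGGCGG or its complement CCGCCC) and a CCAAT box (CCAAT or ATTGG), and the TATA box TATAAA, also searched on both strands, was in none of the 4. No marked match overlaps another.
Col11a1, chr3:114030290-114030539, plus strand: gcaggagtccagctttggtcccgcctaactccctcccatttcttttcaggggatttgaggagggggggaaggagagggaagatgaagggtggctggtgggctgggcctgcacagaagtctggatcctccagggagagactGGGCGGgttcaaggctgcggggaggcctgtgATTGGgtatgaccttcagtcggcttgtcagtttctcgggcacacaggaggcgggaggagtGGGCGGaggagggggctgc
Col4a5, chrX:141475169-141475418, plus strand: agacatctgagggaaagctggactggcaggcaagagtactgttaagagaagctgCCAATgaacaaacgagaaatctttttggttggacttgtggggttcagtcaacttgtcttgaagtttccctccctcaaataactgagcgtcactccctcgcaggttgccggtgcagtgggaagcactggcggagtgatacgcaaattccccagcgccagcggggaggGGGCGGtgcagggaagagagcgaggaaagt
Col4a6, chrX:141474077-141474326, minus strand: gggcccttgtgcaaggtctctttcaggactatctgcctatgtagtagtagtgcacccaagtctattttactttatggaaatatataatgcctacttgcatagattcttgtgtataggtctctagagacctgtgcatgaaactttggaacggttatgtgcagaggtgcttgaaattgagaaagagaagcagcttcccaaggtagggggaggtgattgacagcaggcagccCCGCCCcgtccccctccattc
Col6a6, chr9:105828086-105828335, minus strand: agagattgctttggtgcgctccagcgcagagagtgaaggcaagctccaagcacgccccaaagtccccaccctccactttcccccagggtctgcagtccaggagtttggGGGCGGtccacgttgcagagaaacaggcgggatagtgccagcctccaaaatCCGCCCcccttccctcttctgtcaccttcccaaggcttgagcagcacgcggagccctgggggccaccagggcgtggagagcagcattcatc

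All 4 windows held a GC box, 2 each before Col11a1 and Col6a6, which moved in opposite directions. Windows were found for 34 members, 37 windows in all because some members have more than 1 start, and 8 members had none. A GC box was in 21 of these 37 windows (56.76%) and in 32.74% of the 32851 windows of all genes. The CCAAT box was in 13 of 37 against 33.85%, and the TATA box in 5 of 37 against 12.37%. These shares describe letters only.

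Among the fibrillar chains, Col11a1 had the highest line difference. It encodes a chain of type XI, a minor collagen inside cartilage fibrils that sets their width, and lies at chr3:113733458-113923636 on mm9. In the order of days 0 to 4, then 8, 10, 12 and 14, its ratio was 1.76, 1.04, 0.89, 2.59, 2.53, 2.74, 3.82, 2.32 and 2.80, and it was 1.77 on day 6. Every day lay above 0, and the mean of 2.28 ± 0.92 (SD, n = 9, adjusted p = 0.000196) is a 4.85-fold higher level in the HPRT knockdown line. The other type XI chain, Col11a2, was less regular, with ratios of 1.03, -1.0, 1.44, 2.00, 2.38, 0.97, 0.61, -0.34 and 0.70 in the same order and 0.30 on day 6. Its mean was 0.87 ± 1.06 (adjusted p = 0.0431), and without any 1 of 7 days (0, 2, 3, 4, 8, 10 or 14) the call was lost, with an adjusted p of up to 0.0996.

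Col2a1, the homotrimeric main collagen of cartilage, was higher in the HPRT knockdown line until late in the course and lower at its end. Its ratio was 2.33, 2.54, 1.81, 1.78, 3.08, 3.04, 0.84, 0.65 and -2.29, and 1.03 on day 6. Day 14 was the single day below 0 and stood far from the others. The mean was 1.53 ± 1.67 (adjusted p = 0.0266), 2.01 when day 14 was left out, and the call was lost without day 0, 1, 2, 3, 4 or 8 (adjusted p up to 0.0621). Between days 12 and 14 the level of Col2a1 in the control line went up by 2.58 on the log2 scale, while in the HPRT knockdown line it changed by -0.40.

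The type V chains start and limit type I fibrils, and they did not move together. Col5a3 was higher in the HPRT knockdown line, with ratios of -0.22, 1.70, 1.16, 1.12, 0.15, 1.16, 0.86, 1.41 and 0.15, -0.73 on day 6 and a mean of 0.83 ± 0.65 (adjusted p = 0.00639). Col5a2 was lower, with ratios of -0.26, -0.70, -0.57, 0.66, -0.66, -0.43, -0.30, -0.78 and -0.92, and -1.92 on day 6. Its mean of -0.44 ± 0.47 had an adjusted p of 0.0287, and the call was lost without day 1, 2, 4, 8, 12 or 14 (adjusted p up to 0.0643). Col5a1 was not called (0.53 ± 0.86, adjusted p = 0.113). Its ratio started positive and ended negative, at 1.16, 0.64, 0.93, 0.91, 1.79, 0.95, -0.30, -0.56 and -0.73, with -0.16 on day 6. In reads, Col5a1 ranged from 1502 to 8245 in the control libraries and from 1932 to 6545 in the HPRT knockdown libraries.

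Col24a1, a fibrillar chain described in developing bone and in the eye, was lower in the HPRT knockdown line on each of the 9 days. Its ratio was -0.21, -0.71, -0.74, -1.14, -0.54, -1.15, -1.81, -1.68 and -2.60, and -1.15 on day 6, with a mean of -1.17 ± 0.74 (adjusted p = 0.00203). The counts behind it were low, 10 to 126 reads in the control libraries (median 31) and 6 to 23 in the HPRT knockdown libraries (median 14.5). Scaled to the median library, the medians were 28.7 and 14.6. The HPRT knockdown median lay below the abundance filter. Col24a1 thus passed it through the control line, and the size of the difference is uncertain.

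The chains of types I and III, the most abundant collagens of most connective tissue, did not differ between the lines beyond the spread of days. The ratio of Col1a1 was 1.64, -0.28, 0.07, 0.67, 1.48, 0.94, -0.57, -1.54 and -0.82, and -0.48 on day 6, with a mean of 0.18 ± 1.08 (adjusted p = 0.671). Col1a2, the partner chain of the same trimer, was at 1.14, -0.20, 0.39, 0.86, 1.33, 0.78, -1.24, -1.18 and -0.95, and -0.33 on day 6, with a mean of 0.10 ± 1.02 (adjusted p = 0.794). Both chains were above the control on days 0, 2, 3, 4 and 8 and below it on the other days. Across the 10 days their ratios had a Pearson correlation of 0.946, a description over libraries that they share, and they lay at most 0.66 apart. Col3a1 had a mean of -0.32 ± 0.87 (adjusted p = 0.331). Col27a1, a fibrillar chain of cartilage, had a mean of 0.30 ± 0.57 (adjusted p = 0.179).

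**Figure D2:**
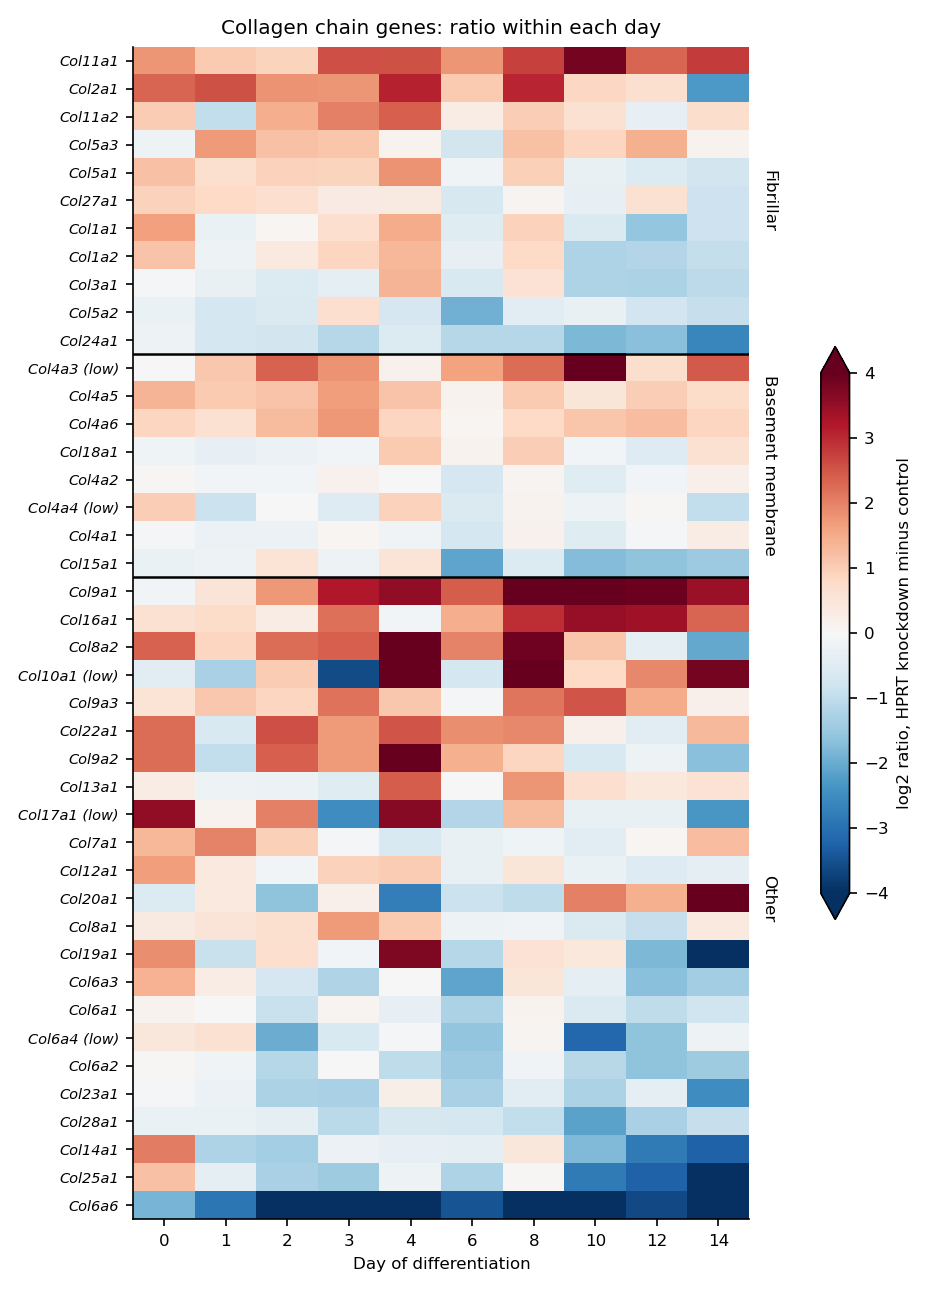
Log2 ratio, HPRT knockdown minus control, of the 42 collagen genes (rows, by class, ordered by mean ratio) on each of 10 days (columns), with red for higher and blue for lower in the HPRT knockdown line. Colours saturate at 4 and -4, and low marks the 5 members under the filter. Col11a1 is red and Col6a6 is blue in every column. Col1a1 and Col1a2 change sign several times, above 0 on days 0, 2, 3, 4 and 8 and below 0 on the others.

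Type IV collagen is made from 6 genes that lie head to head in 3 pairs, and the pairs behaved differently. Col4a5 and Col4a6, on the X chromosome, begin 1309 bases apart on opposite strands (mm9, chrX:137909928-138123778 and chrX:137599946-137908619). They encode chains of the networks found in kidney, skin and smooth muscle basement membranes. The ratio of Col4a5 was 1.35, 1.04, 1.13, 1.67, 1.14, 1.04, 0.47, 0.99 and 0.72, and that of Col4a6 was 0.85, 0.62, 1.26, 1.72, 0.85, 0.80, 1.11, 1.24 and 0.87. Both were above 0 on all 9 days, and both were near 0 on day 6, at 0.13 and 0.07. The means were 1.06 ± 0.34 (adjusted p = 0.000105) and 1.04 ± 0.33 (adjusted p = 0.000107), which are 2.09-fold and 2.05-fold higher levels in the HPRT knockdown line. Their SDs over days were the smallest of the called members. The ratios of the pair correlated at 0.690 over the 10 days, which include day 6, and differed by at most 0.64. Their time courses were not the same. In the control line Col4a5 rose by 0.08 per day (limma, adjusted p = 0.0172), and Col4a6 had no called trend (0.00 per day, adjusted p = 0.93).

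Col4a1 and Col4a2, whose chains form the trimer of nearly every basement membrane, stayed level between the lines. Their annotated starts on chromosome 8 are 21 bases apart and the genes overlap there, so a few reads could belong to either gene. The ratio of Col4a1 was -0.07, -0.22, -0.25, 0.07, -0.15, 0.18, -0.48, -0.04 and 0.29, and -0.70 on day 6. That of Col4a2 was 0.05, -0.10, -0.12, 0.16, 0.00, 0.11, -0.49, -0.12 and 0.21, and -0.68 on day 6. The means were -0.07 ± 0.23 (adjusted p = 0.488) and -0.03 ± 0.21 (adjusted p = 0.743), the smallest SDs of any member tested. The ratios of the pair were never more than 0.15 apart on any of the 10 days (Pearson correlation 0.948).

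Col4a3 and Col4a4, which begin 72 bases apart on chromosome 1 and join Col4a5 in the glomerular basement membrane, were too low to test and did not move alike. The ratio of Col4a3 was 0.03, 1.07, 2.37, 1.81, 0.17, 2.23, 4.06, 0.71 and 2.45, and 1.62 on day 6. That of Col4a4 was 0.99, -0.87, 0.00, -0.51, 0.93, 0.14, -0.19, 0.06 and -0.98, and -0.58 on day 6. Col4a3 was thus above 0 each day while Col4a4 fell on both sides, and with the few reads of Col4a4 (2 to 18 per library) single ratios carry a large counting error. The reads of Col4a3 are not known, and its tables disagreed by up to 0.16. Its control steps from day 4 to day 6 and from day 6 to day 8 were 0. The ratios of Col4a3 and its contrast with Col4a4 are therefore of limited use.

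**Figure D3:**
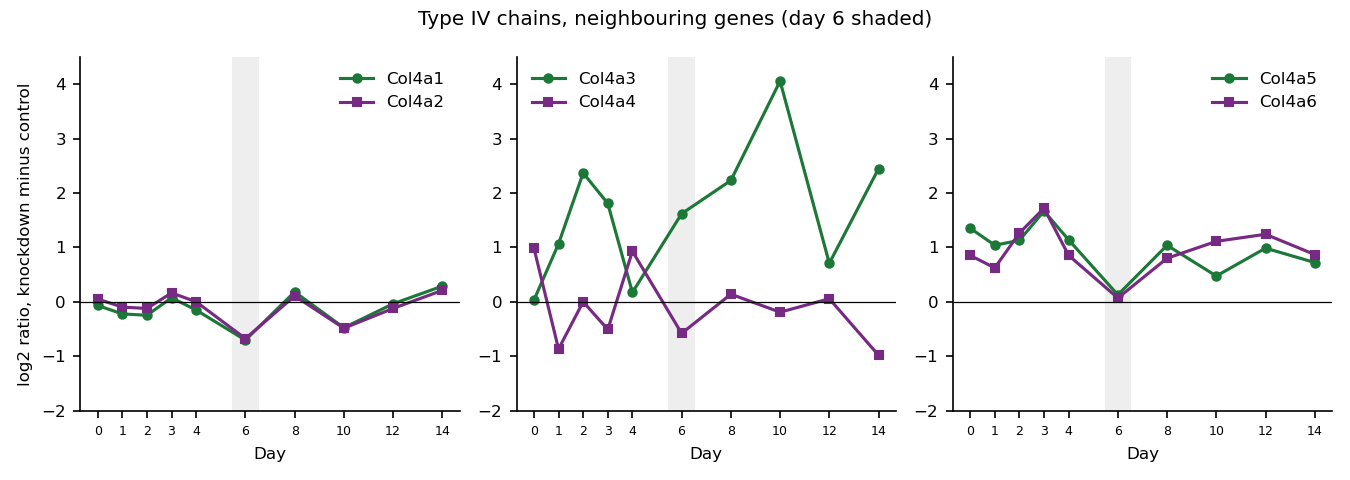
Log2 ratio, HPRT knockdown minus control (vertical axis), against the day for the 3 head-to-head pairs of type IV collagen genes, with day 6 shaded. Col4a1 and Col4a2 lie near 0, Col4a5 and Col4a6 lie above 0 by 0.47 to 1.72 outside day 6, and Col4a3 and Col4a4, both under the filter, diverge.

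The remaining basement membrane chains were the multiplexins. Col15a1 was not called (-0.54 ± 0.87, adjusted p = 0.107), but its ratio fell through the course, as given below. Its ratio was -0.26, -0.19, 0.53, -0.19, 0.55, -0.56, -1.73, -1.61 and -1.45, and -2.12 on day 6. Col18a1, whose end fragment is endostatin, had a mean of 0.13 ± 0.59 (adjusted p = 0.56).

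Among the other types, the lowest line difference of all members was that of Col6a6. It encodes a later described chain of the type VI family, whose products form beaded filaments around cells, and lies at chr9:105591747-105730415 on mm9, minus strand. On days 0 to 4 and on days 6, 8 and 10 it had 108, 48.3, 55.4, 115, 67.2, 114, 383 and 739 reads in the control line. The same days gave 44, 6, 2, 3.82, 2.49, 10, 21.8 and 19 reads in the HPRT knockdown line. The lines did not overlap in any pair of these libraries: the highest HPRT knockdown value lay below the lowest control value. The ratio was -1.85, -2.88, -4.79, -4.11, -4.41, -4.32, -4.98, -3.61 and -4.97, and -3.45 on day 6. The mean was -3.99 ± 1.05 (adjusted p = 2.87e-05), which corresponds to 15.9-fold. Its HPRT knockdown level was low, with a median of 8 reads and 2 to 44 over the 8 days with known reads, so Col6a6 passed the abundance filter through the control line, where the median was 111 reads, and the size of the fold is uncertain. The tables give Col6a6 with disagreements of up to 0.17 on the log2 scale.

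The classical type VI chains moved far less. Col6a1 and Col6a2, neighbours on chromosome 10, had ratios that ran in parallel (Pearson correlation 0.948 over 10 days). Col6a1 was at 0.15, -0.03, -0.88, 0.11, -0.32, 0.13, -0.57, -1.02 and -0.79, and -1.26 on day 6, with a mean of -0.36 ± 0.47 (adjusted p = 0.0655). Col6a2 was at 0.05, -0.14, -1.13, 0.00, -1.0, -0.13, -1.10, -1.62 and -1.41, and -1.46 on day 6, with a mean of -0.72 ± 0.66 (adjusted p = 0.0134). Col6a2 was called and Col6a1 was not, yet the difference between the 2 was not tested and was at most 0.68 on any day. Col6a2 had 778 to 11702 reads in the control libraries and 306 to 4798 in the HPRT knockdown libraries. Col6a3 had a mean of -0.35 ± 0.99 (adjusted p = 0.347), but its tables disagreed by up to 1.17, and it was listed at 0 in both columns of the day 4 table although its steps from day 3 and to day 6 were not 0. Its values are therefore of limited use.

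Type IX collagen sits on the surface of type II fibrils in cartilage and needs 3 chains. Col9a1 had the highest line difference of all members. It had 1102, 153, 56.7, 139, 38, 109, 57, 126 and 150 reads in the control line on days 0 to 4 and then 6, 8, 10 and 12. In the HPRT knockdown line it had 1495, 198, 189, 732, 351, 561, 1953, 7795 and 1403. The lines were alike on day 0, dropped together by day 1, and then parted. The step from day 1 to day 2 was -0.98 in the control and 0.20 in the HPRT knockdown line. From day 2 to day 3 it was 0.36 and 1.84. The ratio was -0.11, 0.51, 1.74, 3.21, 3.55, 4.92, 6.26, 3.94 and 3.44, and 2.43 on day 6, with a mean of 3.05 ± 2.04 (adjusted p = 0.00241), or 8.27-fold. Col9a3 was higher on all 9 days, by 0.20 to 2.51, with a mean of 1.34 ± 0.79 (adjusted p = 0.00136) and -0.03 on day 6. Col9a2 was not called (0.86 ± 1.87, adjusted p = 0.219), with a ratio of 4.03 on day 4 and -1.66 on day 14. Among cartilage markers, 6 of the 10 listed in the tables were tested: Acan (2.53 ± 1.53) and Sox9 (0.67 ± 0.52) were higher and Matn3 (-1.2 ± 0.84) was lower. Of all genes tested, 26.2% were higher and 26.3% lower. Hapln1 (1.13 ± 3.08), Matn4 (-0.83 ± 1.40) and Lect1 (-1.28 ± 2.54) were not called, and the median line difference of the list was -0.08. The mean ratio of that list ranged from -1.34 to 1.86 over the days, and its part in these results was not tested.

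Of the further fibril-associated chains, Col16a1 and Col22a1 were called higher and none was called lower (limma, adjusted p below 0.05, and none at an unadjusted p below 0.05 or by the exact sign-flip test with adjustment). Col16a1, found near basement membranes and in many connective tissues, was higher, with ratios of 0.61, 0.73, 0.30, 2.20, -0.10, 2.95, 3.48, 3.38 and 2.34, and 1.44 on day 6. Its mean was 1.76 ± 1.39 (adjusted p = 0.00588). Its reads were 198 to 992 in the control libraries and 173 to 3853 in the HPRT knockdown libraries, and from day 8 on each HPRT knockdown library had 1736 reads or more, above every control library. Col22a1, a chain of tissue junctions such as that of muscle and tendon, was higher on 7 of 9 days (1.26 ± 1.25, adjusted p = 0.0174), with medians of 176 reads in the control and 374 in the HPRT knockdown line. Col12a1 (0.36 ± 0.74, adjusted p = 0.206) and Col14a1 (-0.94 ± 1.65, adjusted p = 0.133), which bind the surface of type I fibrils, were not called. Neither were Col19a1 (0.03 ± 2.22) and Col20a1 (0.34 ± 2.27), whose SDs were the largest of all 37. The ratio of Col19a1 was 3.72 on day 4 and -4.16 on day 14, and that of Col20a1 was -2.77 and 4.94.

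Of the short-chain network collagens, known from the inner membrane of the cornea, Col8a2 was called higher and Col8a1 was not (0.33 ± 0.80, adjusted p = 0.273). The ratio of Col8a2 was 2.34, 0.87, 2.24, 2.40, 5.14, 3.90, 1.10, -0.35 and -2.05, and 2.00 on day 6, with a mean of 1.73 ± 2.15 (adjusted p = 0.0445). The call was lost without day 0, 1, 2, 3, 4, 8 or 10 (adjusted p up to 0.0997), and the control line ended with its highest count, 1399.7 reads on day 14 against 320.0 on day 12. Col7a1, the anchoring fibril chain of skin, was not called (0.48 ± 0.92, adjusted p = 0.172).

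Transmembrane collagens were lower where they were called. Col25a1, a neuronal membrane collagen, had ratios of 1.18, -0.40, -1.30, -1.42, -0.19, 0.03, -2.82, -3.22 and -4.06, and -1.24 on day 6. The mean was -1.36 ± 1.72 (adjusted p = 0.0481), and the call was lost without day 1, 2, 3, 4, 10, 12 or 14 (adjusted p up to 0.106). On day 12 it had 239.5 reads in the control and 15.7 in the HPRT knockdown library. Col23a1 was lower on 8 of 9 days (-0.80 ± 0.85, adjusted p = 0.0256), and its call was lost without day 2, 3 or 10 (adjusted p up to 0.0599). Col13a1, a chain of neuromuscular junctions, was not called (0.58 ± 0.95, adjusted p = 0.115). Col28a1, known from the sheath of peripheral nerves, was lower on all 9 days, at -0.25, -0.28, -0.37, -1.07, -0.63, -0.99, -2.13, -1.31 and -0.91, and -0.70 on day 6. Its mean was -0.88 ± 0.60 (adjusted p = 0.0031), on 8 to 93 reads in the control and 6 to 30.8 in the HPRT knockdown libraries. Scaled to the median library, its medians were 21.8 reads in the control and 12.6 in the HPRT knockdown line. The HPRT knockdown median lay below the abundance filter. Col28a1 thus passed it through the control line, and the size of the difference is uncertain.

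**Figure D4:**
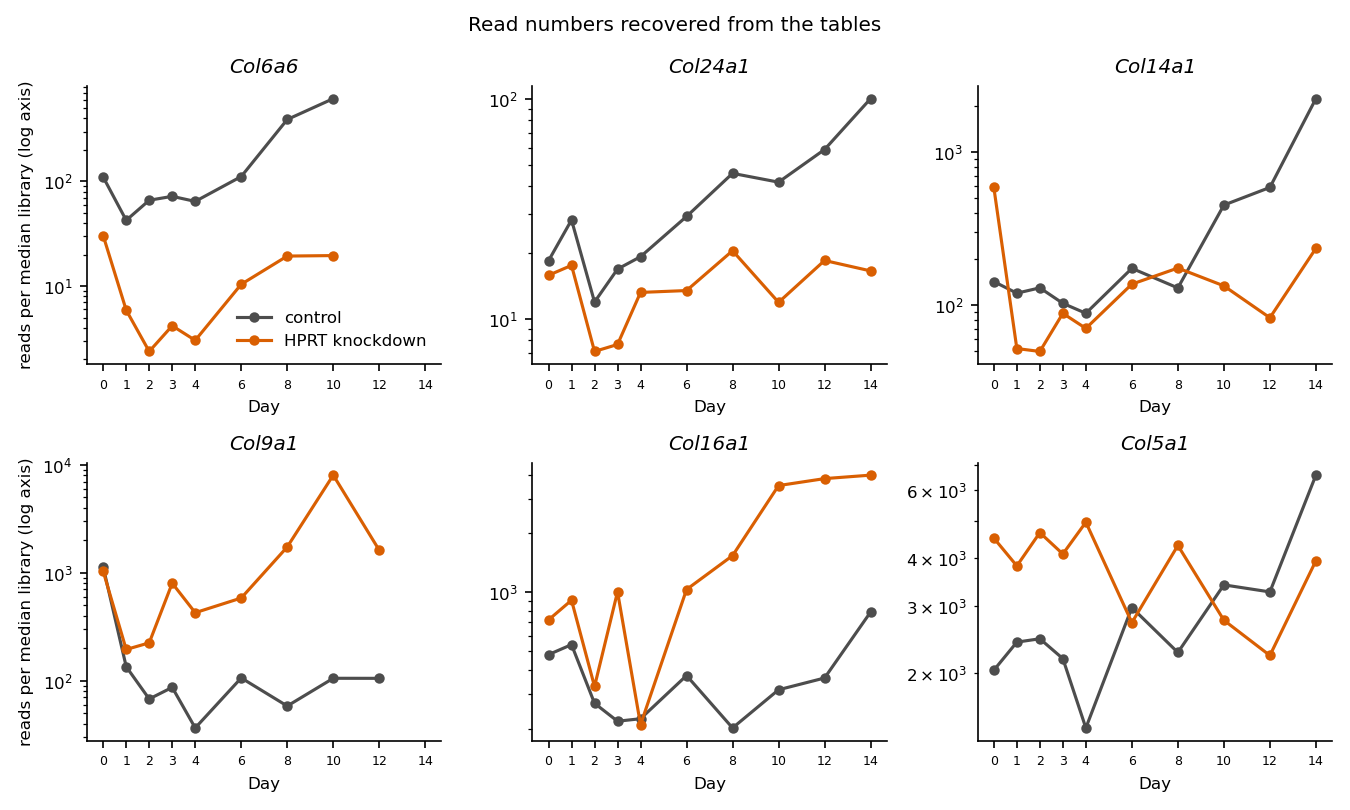
Reads per library scaled to the median library (vertical axis, log scale) against the day for 6 collagen genes, control in grey and HPRT knockdown in orange, where reads could be worked back from the tables. Col6a6 is apart on every day shown, Col9a1 parts after day 1, and Col24a1, Col14a1 and Col5a1 end with the control line higher.

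Whether the lines drifted apart was tested as the slope of the ratio on the day. The slope passed an adjusted p of 0.05 in 5 of the 37 members, against 14% of all genes tested (7.43% rising and 6.61% falling). It was below 0 in 28 of 37 members, while 55.19% of all genes tested had a slope above 0. It fell in Col5a1 by 0.14 per day (adjusted p = 0.0317), in Col15a1 by 0.14 (0.0273), in Col24a1 by 0.13 (0.00836) and in Col25a1 by 0.28 (0.025), and it rose in Col16a1 by 0.21 (0.0454). Col24a1 was called whichever day was left out, on the low counts given above. The call of Col5a1 was lost without day 0, 10, 12 or 14 (adjusted p up to 0.118), that of Col15a1 without day 10, 12 or 14 (0.0848), that of Col25a1 without day 0, 10, 12 or 14 (0.103) and that of Col16a1 without day 0, 1, 2, 8, 10 or 12 (0.124). Without day 10 a single member was called. The median ratio of the 37 members was 0.61 at the start and 0.85 on day 4, and it was -0.32, -0.46 and -0.79 on the last 3 days sampled, while the median of all genes stayed between -0.02 and 0.01. It was also below 0 on day 1 (-0.14). For the fibrillar class it was 1.03 at the start, -0.20 on day 1, 1.36 on day 4 and -0.82 at the end. The 6 basement membrane members differed at both ends of the course, with -0.01 at the start and 0.45 on day 14. On that last day 5 of 6 were above 0. In between, their median also dipped on day 1 (-0.15) and was highest on day 4 (0.70). It was below 0 on day 10 (-0.29) and day 12 (-0.08) too.

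Levels can be set side by side only per length. In reads per kilobase of exon, scaled to the median library, the most abundant members with known reads were Col6a2, with a median of 327 in the control and 211 in the HPRT knockdown line, Col5a1 with 287 and 473, and Col5a2 with 208 and 167. Col12a1 (75.0 and 100.3), Col8a1 (81.6 and 95.1) and Col9a2 (68.2 and 96.0) were lower. Col9a1 (20.5 and 156) and Col16a1 (50.4 and 151) lay below these 3 in the control line and above them in the HPRT knockdown line. Low members in both lines were Col24a1 (3.76 and 1.92), Col19a1 (1.88 and 2.22), Col10a1 (1.63 and 1.40), Col17a1 (0.53 and 2.08), Col6a4 (0.57 and 0.41) and Col4a4 (0.56 and 0.51). Col6a6 was at 12.2 in the control and 1.09 in the HPRT knockdown line over the 8 days with known reads. These levels cover 25 members, and the chains of types I, II, III and most of type IV are not among them.

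Within each line, the trend over time was taken from the consecutive-day tables added up from day 0. In the control line 15 of 37 members rose and none fell at an adjusted p below 0.05 (limma), against 43.6% of all genes called (19.7% rising and 23.9% falling). At an unadjusted p below 0.05, 18 rose and none fell, and limma was the only tool used for trends. Without day 0, 1 member fell, and without day 14, 2 fell. With the slope taken on log2(day + 1), 5 members rose in the control line, and in the HPRT knockdown line 1 member was called. The 15 were Col3a1 and Col5a1, the fibrillar Col24a1, the type IV chains Col4a1, Col4a2 and Col4a5, and Col6a6, Col8a1, Col8a2, Col12a1, Col13a1, Col14a1, Col19a1, Col25a1 and Col28a1. The steepest were Col6a6 (0.31 per day, adjusted p = 0.00102), Col19a1 (0.29, 0.0147) and Col14a1 (0.28, 0.00318). The calls of Col19a1 and Col28a1 were lost, and Col1a2 was called, when the step of days 3 to 4 was taken through the HPRT knockdown tables. In the HPRT knockdown line 5 members rose and 1 fell, against 13.1% of all genes (7.6% rising and 5.53% falling). Col4a1, Col4a2, Col9a1, Col16a1 and Col20a1 rose, and Col2a1 fell by 0.31 per day (adjusted p = 0.00735). The count in the HPRT knockdown line was 2 without day 2, 12 or 14 and 3 without day 3 or 8. Col4a1 and Col4a2 were the members called in both lines, at 0.07 per day each in the control and 0.08 and 0.06 in the HPRT knockdown line.

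Differences from day 0 to day 14 show how far the lines could part. Col14a1 was 4.14 higher on day 14 in the control line (140 reads on day 0 and 2816 on day 14) and was 1.35 lower in the HPRT knockdown line (855 and 228 reads). Col19a1 differed by 5.15 in the control line (8 and 209 reads) and by -1.69 in the HPRT knockdown line (42.8 and 9 reads). The control value adds up the step of days 3 to 4, whose table is at odds with the others, and was 4.38 when that step was taken through the HPRT knockdown tables. Col20a1 went the other way, with -1.19 in the control and 4.19 in the HPRT knockdown line. Col2a1 was at 0.07 and -4.60. Col8a1 was alike in both, at 3.75 and 3.81. These are differences between single libraries and carry no test.

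Steps between consecutive days of at least 2-fold were frequent among the members. They made up 89 of the member steps in the control line (26.73%) and 102 in the HPRT knockdown line (30.63%), against 6.26% and 10% of the steps of all genes. With 1 library per day these are descriptions. The counts include the steps into and out of day 6, which the study left out as discrepant and the fits here left out too. They also include the control step of days 3 to 4, whose table is at odds with the others. Over the 9 control steps in order, 10, 10, 2, 7, 19, 11, 5, 2 and 23 of the 37 members moved at least 2-fold, and of all genes 9.69%, 3.23%, 2.62%, 4.13%, 12.8%, 12.3%, 2.82%, 1.87% and 6.91% did. In the HPRT knockdown line it was 15, 15, 9, 13, 13, 8, 11, 4 and 14 members, beside 16.2%, 9.6%, 8.41%, 9.23%, 10.1%, 10.8%, 12.4%, 7.57% and 5.84% of all genes. From day 12 to day 14, 20 members went up and 3 went down in the control line. The largest were Col9a1 (2.77), Col2a1 (2.58), Col9a3 (2.55), Col19a1 (2.41) and Col8a2 (2.32), while Col20a1 went down by 2.54. In the HPRT knockdown line the same step took 14 members up and none down, led by Col9a1 (2.24) and Col1a1 (2.17). From day 4 to day 6, 18 members went up in the control line, led by Col19a1 (3.48, from 2 reads on day 4 to 22 on day 6) and Col13a1 (2.35), and Col22a1 went down by 1.09. In the HPRT knockdown line that step took 5 up, Col16a1 (2.30) and Col6a6 (1.78) first, and 8 down. From day 6 to day 8 the HPRT knockdown line had 8 members up and none down, Col1a1, Col1a2, Col3a1 and the type VI chains Col6a1, Col6a2 and Col6a3 among them. From day 0 to day 1 all 3 type IX chains went down at least 2-fold in both lines. Col9a1 changed by -3.08 in the control and -2.39 in the HPRT knockdown line, Col9a3 by -1.81 and -1.23, and Col9a2 by -1.09 and -4.24. In the same step Col5a3 (1.22 and 3.2), Col8a1 (1.81 and 2.02), Col7a1 and Col4a6 went up in both.

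**Figure D5:**
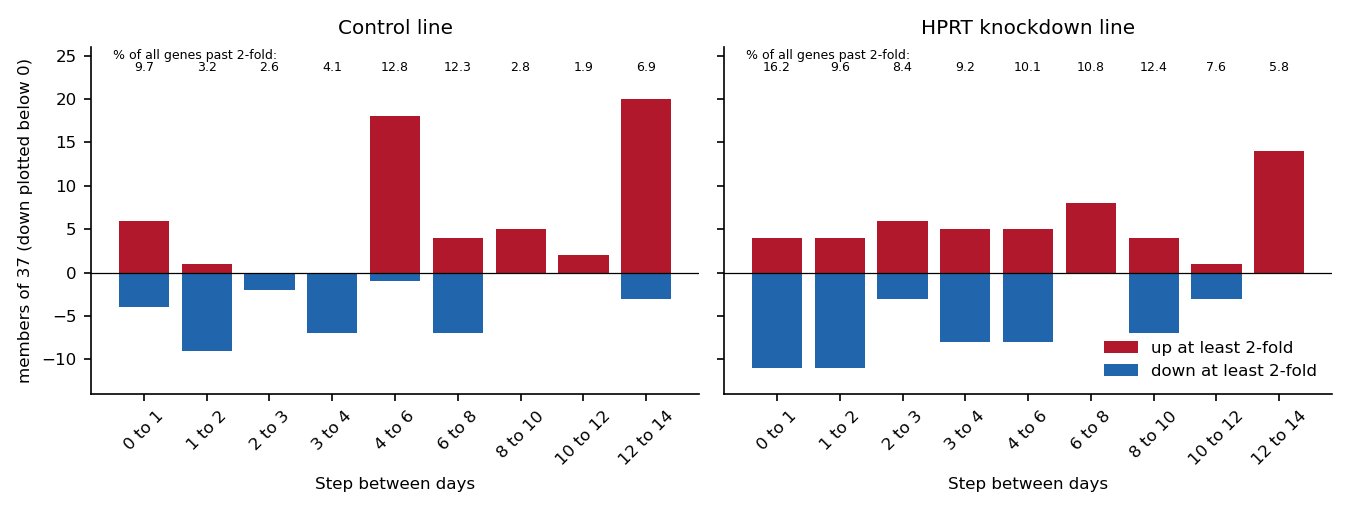
Number of the 37 tested collagen genes that went up (red) or down (blue, below 0) at least 2-fold in each consecutive-day step, control line left and HPRT knockdown line right, with the percentage of all genes past 2-fold above each bar. The tallest bars are the control steps from day 12 to 14 (20 up) and from day 4 to 6 (18 up), and day 6 was left out of the fits.

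The genes that make, bind and remove collagen were then examined by list, beside a background of 26.2% higher and 26.3% lower among all genes tested. Of 18 tested genes for the modification and folding of chains, 10 were higher in the HPRT knockdown line and none lower (limma, line difference), with 11 higher and none lower at an unadjusted p below 0.05 and 10 and none by the exact sign-flip test with adjustment. Glt25d2, a collagen galactosyltransferase, had a mean ratio of 2.76 ± 0.98, the prolyl hydroxylase subunit P4ha3 had 1.75 ± 1.03, the prolyl isomerase Fkbp14 had 1.07 ± 0.41 and the prolyl 3-hydroxylase Leprel1 had 0.99 ± 0.43. All 3 lysyl hydroxylases, Plod1, Plod2 and Plod3, were higher on 9 of 9 days, by 0.64 (Plod3) to 0.86 (Plod1) on average, and are named here after their values were seen. So is the collagen chaperone Serpinh1, which was not called (0.10 ± 0.57, adjusted p = 0.644). Of 12 secretion and propeptide processing genes, 3 were higher and none lower (4 and 1 unadjusted, 3 and none by sign flips): Bmp1, the protease that cuts the end propeptide (1.10 ± 0.17), and the coat proteins Sec24d (0.54 ± 0.19) and Sec23a (0.53 ± 0.26). Of 7 crosslinking genes, the lysyl oxidase relatives Loxl3 (0.73 ± 0.43) and Loxl2 (0.60 ± 0.49) were higher and none was lower (3 and none unadjusted, 2 and none by sign flips). The shares called higher in the secretion and crosslinking lists were close to that of all genes.

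Of 9 tested collagen receptors, 6 were higher and none lower (6 and none unadjusted, 5 and none by sign flips). The adhesion receptor Gpr126 was at 2.28 ± 0.41, the integrin subunits Itga2 and Itga1 at 1.77 ± 1.83 and 1.08 ± 0.62, and the receptor kinase Ddr1 at 1.3 ± 0.32. The platelet receptor Gp6 had no reads. Among 12 genes of collagen breakdown and its inhibitors, 6 were higher and 1 lower, with the inhibitors Timp4 (2.13 ± 0.60) and Timp3 (1.28 ± 0.49) and the membrane protease Mmp15 (1.13 ± 0.54) up and the surface protease Fap (-1.14 ± 1.03) down. The 20 basement membrane partners gave 7 higher and 3 lower, with Lama3 (1.32 ± 1.24) and Sparc (1.06 ± 0.35) higher and Lama2 (-1.17 ± 1.24) and Nid2 (-0.94 ± 0.72) lower. The 14 fibril partners were split 4 to 4: the small proteoglycans Prelp (2.53 ± 1.2) and Fmod (1.52 ± 1.74) were higher, and Aspn (-2.75 ± 1.79) and Bgn (-1.42 ± 0.79) were lower. Among all genes tested, 26.2% were higher and 26.3% lower. The median line difference was 0.44 for modification and folding, 1.08 for receptors, 0.04 for secretion, 0.60 for crosslinking, 0.45 for breakdown, 0.34 for basement membrane partners and -0.05 for fibril partners, beside 0.01 for all genes tested.

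Markers of cell types that make collagen were examined beside these results. Of 15 tested fibroblast and mesenchyme markers, 1 was higher (Pdgfra) and 3 were lower (Fap, Lum and Postn) in the HPRT knockdown line, beside 26.2% and 26.3% of all genes. In the control line 7 of the 15 rose over time and none fell (limma, and likewise 7 and none at an unadjusted p below 0.05), beside 19.7% and 23.9% of all genes. All 18 listed markers had reads. The mean ratio of this list was 0.11, -0.03, -0.30, 0.26, 0.56, 0.31, -0.37, -0.63 and -0.74 in the order of the 9 days, and -1.05 on day 6. The member medians on those days were 0.61, -0.14, 0.30, 0.33, 0.85, 0.58, -0.32, -0.46 and -0.79, and -0.37 on day 6. Both were below 0 on days 1, 6, 10, 12 and 14, and on day 2 they had opposite signs. From day 12 to day 14 the median step of the fibroblast list was 0.90 in the control and 0.58 in the HPRT knockdown line, beside 1.02 and 0.79 for the collagen genes. From day 4 to day 6 it was 0.89 and -0.56, beside 0.98 and -0.27. Fap, Lum, Dcn and Postn also belong to the breakdown or fibril partner list. The part of fibroblast-like or feeder cells in the collagen results was not tested.

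The other marker lists are given beside the same background (26.2% of all genes higher and 26.3% lower). Of the tested markers, mural and meningeal ones gave 2 higher and 3 lower of 8 (Abcc9 at -2.23 ± 1.73, Cspg4 at 2.51 ± 1.52), endothelial ones 2 higher and 3 lower of 8, and endoderm ones 2 higher and 1 lower of 9. Schwann and neural crest markers gave 1 lower and none higher of 6 (the same unadjusted, none either way by sign flips after adjustment), with 4 slopes of the ratio rising (7.43% of all genes) and a list mean between -1.79 and 3.38. Neuron markers gave 5 lower and none higher of 7 (the same unadjusted, 4 and none by sign flips), with a list mean between -2.49 and 0.20, and neural progenitor markers 3 higher and 2 lower of 8. Every listed marker found in the tables had reads, and the part of these cell types in the collagen results was not tested.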

How the data were processed

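RNA of 20 SNM libraries (2 lines, 10 days, 1 library per line and day) was sequenced for 50 cycles, and the authors aligned reads to mm9 with CASAVA 1.8.2 and normalized them with DESeq (submitters' notes). The deposited tables hold log2 normalized counts of 2 libraries, centred by the authors on the mean of both, with normalized counts of 1 or less entered as log2 0. There are 28 tables, 10 same-day and 9 consecutive-day per line, each normalized separately. Around every pair of neighbouring days 4 tables form a loop, and 8 of 9 loops closed within 1e-05 for most genes. The loop of days 3 and 4 did not, and the control table of that step is at odds with the others.

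The ratio was the HPRT knockdown value minus the control value in a same-day table. Genes with a typical log2 normalized count of about 4 or more were kept (13608). This level was estimated from the median rounding step of the values over the tables, not from counts. limma 3.58.1 in R 4.3.3 tested the mean ratio and its slope on day, and the slope of each line's added-up steps, over 9 days without day 6, with Benjamini-Hochberg adjustment over all 13608 genes and a threshold of 0.05. The tests of the mean ratio and of its slope were checked on simulated data with independent noise for each day. Successive days of the same lines need not be independent, and the trends within a line were not simulated. Read numbers were worked back by finding counts, in units of 1/49 read, that give the deposited values in 27 tables. Depth per library is not given in the sources used here, and precision is limited by the 9 days. The lines were paired by the labelled day. Over 13608 genes, the deviations of same-day libraries from their line's mean correlated at a median of 0.384, from -0.032 on day 0 to 0.412, and above 0.1 on 8 of 9 days.

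Per-day values are given for the 3 highest and 3 lowest called members of each class, chain pairs and members with a called slope. Of other lists at most 4 called genes with the largest mean ratio are named, unless said otherwise. The members and lists were chosen with earlier results of these data known. Alternatives were a stricter filter, no filter, day 6 included, each day left out, median centring, ratios rebuilt from consecutive-day tables, no pairing, sign flips, and a slope on log2(day + 1). Figures were drawn with matplotlib 3.10.9.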

Additional observations from a re-analysis of the deposited data

Results flagged for a closer look

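The ratio of Col2a1 on day 14, -2.29, lay far from its other days, which ran from 0.65 to 3.08. It was the only such day among 37 members examined, and chance sets apart about 1 in 20 groups of values. The ratio between the lines changed through the course in 5 of 37 members (13.51%, beside 14% of all genes, so the count is at the background), by a test of its slope on day (limma, adjusted over 13608 genes). The slope was -0.14 per day in Col5a1, -0.14 in Col15a1, 0.21 in Col16a1, -0.13 in Col24a1 and -0.28 in Col25a1. Of these, Col24a1 was called with each of the 9 days left out in turn, on low counts in the HPRT knockdown line.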

How the results depend on the processing

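Of the 18 members called between the lines, 7 were called under every setting in which they were tested and 12 with each day left out in turn, and no called member changed sign under any setting. With a filter of log2 count 8, 7 of 19 members were called, 5 higher and 2 lower. Without pairing by day (no replicate block), 11 were called (7 higher, 4 lower), and by sign flips 12 (7 higher), where the smallest p is 0.00390625. Leaving out 1 day gave 12 (without day 2) to 17 calls, 4 to 9 of them lower. For the slope of the ratio, leaving out 1 day gave 1 (without day 10) to 7 calls, 0 to 2 rising and 1 to 7 falling. A filter of 8 gave 2 rising, and no filter 0 rising. Over all genes the 1911 called slopes became 1066 with day 6, and 1264, 1069, 605 and 870 without day 0, 10, 12 and 14. The control trend had 8 calls, all rising, with a filter of 8, 5, all rising, on log2(day + 1), and 12 to 17 with 1 day left out (0 to 2 falling), and over all genes 5933 became 3929 on log2(day + 1). The HPRT knockdown trend had 1 call (0 rising) on log2(day + 1), 3 rising with day 6, 2 falling without a filter, and 2 to 9 with 1 day left out (0 to 8 rising, 1 to 2 falling). Over all genes its 1786 became 127 on log2(day + 1), and 2959, 725, 849, 464 and 171 without day 0, 2, 10, 12 and 14. At 1.5-fold, 151 control and 174 HPRT knockdown member steps were counted. The causes were not tested. Chosen after seeing the data, ratios rebuilt around the odd control table gave 18 calls, and leaving out days 0 and 1 gave 17. Small read numbers limit Col4a4, Col6a4, Col6a6, Col10a1, Col17a1, Col19a1, Col24a1 and Col28a1.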
